A study of Mus musculus with 12 samples.

Results

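The 9 genes described here write, read and erase DNA methylation, and were measured in hair follicle stem cells (HFSCs) sorted from mouse back skin. They were matched by gene symbol, and all 9 were found among the 17885 genes of a table comparing Eed iKO with control HFSCs and among the 21915 genes of a hair cycle table comparing anagen with telogen HFSCs. All 9 also passed the filter on low values in both tables, which left 15008 and 13457 genes for testing.

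The data were 12 bulk RNA-seq libraries, 3 for each of the groups control, Eed iKO, anagen and telogen, from C57BL/6J mice. Control and Eed iKO HFSCs came from mice at P70, that is 70 days after birth. Eed iKO mice carried the K15-CrePGR transgene, in which the keratin 15 promoter drives a Cre recombinase that RU-486 activates, together with floxed alleles of Eed (Eed fl/fl), a core subunit of Polycomb Repressive Complex 2 (PRC2). RU-486 in ethanol was put on the back skin once a day for 7 days from day 50, and control mice, labelled wildtype, received ethanol only, so that loss of Eed and exposure to RU-486 cannot be told apart. Anagen HFSCs were from wildtype mice aged 28 to 30 days and telogen HFSCs from wildtype mice aged 50 to 52 days, so that the growing or resting state of the follicle and the age of the mouse cannot be told apart either. In all groups the sort kept cells positive for CD34 and EpCAM, high in α6-integrin and negative for Sca1, and the Cre line is active in the bulge of the follicle, where these cells reside.

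DNA methylation is the addition of a methyl group to cytosine, in mammals mostly where a cytosine precedes a guanine. DNMT1 copies the pattern onto the new strand after replication, with UHRF1, which finds hemimethylated sites, and HELLS, a chromatin remodeler that opens nucleosomal DNA to the machinery. DNMT3A and DNMT3B set new marks, the dioxygenases TET1, TET2 and TET3 oxidize the methyl group as a step toward its removal, and MBD1 binds methylated DNA. PRC2, the complex that EED belongs to, methylates histone H3 at lysine 27 and is a separate silencing system.

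The libraries of the Eed iKO table held 33269583 to 57063586 reads counted to genes. The hair cycle libraries summed to 11370984 to 13186648 normalized counts, and their sequencing depth is unknown. A normalized count here is the deposited value, a count scaled between the libraries of its table. The tables were normalized separately, so levels were never compared between them. Eed itself, counted over the whole gene, had normalized counts of 1084, 1249 and 950 in the control libraries and 933, 1361 and 1001 in the libraries labelled Eed iKO, a log2 fold change of -0.01 ± 0.22 (SE). These counts do not resolve the floxed exons, so within this table the genotype rests on the labels. Apart from these counts, the paper reported lower Eed mRNA by RT-qPCR in sorted Eed iKO HFSCs. It also reported loss of the PRC2 histone mark in Eed iKO HFSCs at P70 by immunofluorescence. Cd34, the surface marker of the sort, was at 47502, 37765 and 46265 normalized counts in control and at 31535, 34014 and 38699 in Eed iKO. Its log2 fold change was -0.33 (adjusted p = 0.340 by limma). Of 12 HFSC markers, 0 were called in the Eed iKO table. At an unadjusted p under 0.05 by limma, Krt14 (0.82) and Itga6 (0.41) were higher and Nfatc1 (-0.39) and Tcf7l1 (-0.47) lower. That is 4 of 12, where 14.7% of all genes tested had such a p. In the hair cycle table Cd34 was at 6433, 9159 and 8295 in telogen and at 2955, 3233 and 4144 in anagen. Cd34 was thus lower in anagen (log2 fold change -1.21, adjusted p = 0.0038 by limma). Itga6, the gene of α6-integrin, was higher in anagen (0.97, adjusted p = 0.014 by limma). Of 12 HFSC markers these were the 2 called there, where 11.6% of all genes tested were. Telogen replicate 1 stood apart, with a sum of 239593 normalized counts over 12 HFSC markers against 536338 to 668116 in the other hair cycle libraries. The low sum lay in the keratin genes Krt15 (142406 against 416765 and 350444 in the other telogen libraries) and Krt5 (50461 against 155865 and 131957), while the HFSC transcription factor gene Lhx2 was at 11217 there against 7877 and 7593.

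In the hair cycle table, 4 of the 9 genes were called higher in anagen HFSCs and 0 were called lower. The 4 were all 3 genes of maintenance methylation, Dnmt1, Uhrf1 and Hells, and the de novo methyltransferase Dnmt3a. Dnmt3b, the 3 Tet genes and Mbd1 did not pass the test. The test was limma on log2(normalized count + 1), with p-values adjusted by the Benjamini-Hochberg method over all genes tested and a threshold of 0.05. Of all genes tested, 11.6% were called in either direction and 7.22% were called higher in anagen. The median log2 fold change of anagen over telogen was 0.61 for the 9 genes, ranging from -0.03 to 5.36, and 0.01 for all genes tested. In bulk samples, a change in the share of cells that express a gene and a change in its RNA per cell cannot be told apart.

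**Figure D1:**
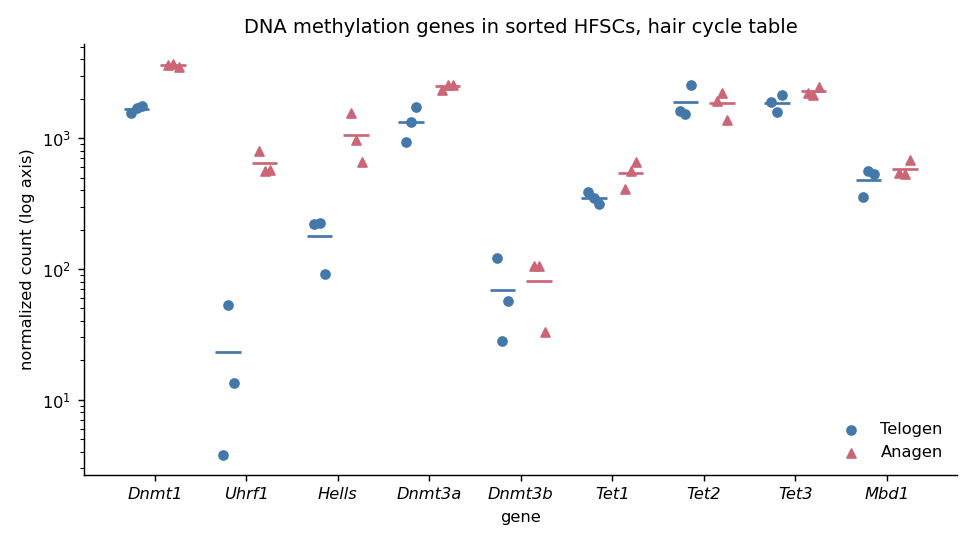
Normalized counts of the 9 genes (log axis) in each of the 3 telogen (circles) and 3 anagen (triangles) libraries, with a line at each group mean. Dnmt1, Uhrf1, Hells and Dnmt3a sat higher in every anagen library than in any telogen library, while the groups overlapped for Dnmt3b, Tet2 and Mbd1.

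Among the maintenance genes, Uhrf1 (chr17:56303321-56323486, plus strand, GRCm38) differed by the most. Its normalized counts were 3.76, 52.8 and 13.4 in telogen and 798, 561 and 566 in anagen. The lowest anagen library was thus far above the highest telogen library, although the telogen libraries themselves were widely spread. The log2 fold change was 5.36 ± 0.71 (SE, adjusted p = 0.00096), and the group means were 23.3 ± 26.0 and 642 ± 135 (SD, n = 3 each). Leaving out 1 library at a time gave log2 fold changes from 4.51 to 6.26, every one past the threshold.

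Hells (chr19:38930915-38971051, plus strand) had normalized counts of 221, 224 and 92.0 in telogen and 1554, 961 and 653 in anagen. The groups did not overlap, and the log2 fold change was 2.57 ± 0.41 (adjusted p = 0.0027). Dnmt1 (chr9:20907209-20959888, minus strand) was the most even of the 4 within groups. Its normalized counts were 1557, 1706 and 1761 in telogen and 3601, 3719 and 3511 in anagen, a 2.16-fold difference of means and a log2 fold change of 1.11 ± 0.17 (adjusted p = 0.0025).

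The 3 maintenance genes also shared a feature of their promoters that the choice of genes did not use. RefSeq promoter windows of 250 bases before each annotated start (GRCm38.p6) were on hand for 8 of the 9 genes, 13 windows in all. They were searched on both strands for 4 forms of the E2F motif, the binding sequence of the E2F factors known for control of replication genes: TTTGGCGC, TTTCGCGC, TTTCCCGC and TTTGGCGG. A match, 1 in each window that held any, was present in a window of Dnmt1, Uhrf1 and Hells and in no window of Dnmt3a, Dnmt3b, Tet1, Tet2 or Tet3. Over all promoters of this length, 1.96% of 32851 held one, and 2.26% of 27025 genes. The motifs CCAAT and TTTGAA were searched in the same windows and did not set the maintenance genes apart. CCAAT was in a window of Dnmt1, Uhrf1 and Tet3 but in none of Hells, and in 37.5% of all genes. TTTGAA was in a window of Dnmt1 and Dnmt3b, and in 18.3% of all genes. The E2F match of the 3 maintenance genes is a description of letters and not evidence of binding. The 30 bases around each match are shown because a match is what these 3 genes share, 5′ to 3′ on the strand of the gene and with the match in capitals:
Dnmt1: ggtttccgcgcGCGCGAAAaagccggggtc
Uhrf1: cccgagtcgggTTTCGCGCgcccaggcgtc
Hells: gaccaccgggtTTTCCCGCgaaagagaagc
The Dnmt1 stretch (chr9:20952824-20952853) lay 219 bases before the most downstream RefSeq start and inside an annotated exon of the transcript Dnmt1-201. It held the same form as Uhrf1, TTTCGCGC, on the opposite strand. The Uhrf1 stretch (chr17:56304117-56304146) began its match 185 bases before the second RefSeq start and lay in no annotated exon of the gene. The Hells stretch (chr19:38930917-38930946) had its match, TTTCCCGC, 62 bases before the RefSeq start and inside an exon of Hells-201.

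The whole window of the second Uhrf1 start (chr17:56304063-56304312, plus strand) is shown because this gene differed by the most, again with the E2F match in capitals:
Uhrf1 promoter: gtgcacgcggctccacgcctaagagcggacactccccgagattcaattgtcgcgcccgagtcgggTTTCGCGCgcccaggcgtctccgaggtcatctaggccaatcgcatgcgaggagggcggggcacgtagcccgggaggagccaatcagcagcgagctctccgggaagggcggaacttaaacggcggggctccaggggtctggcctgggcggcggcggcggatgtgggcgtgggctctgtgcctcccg
This window had 30 CpG dinucleotides and a ratio of observed to expected CpG of 1.0, higher than 94.5% of all promoter windows. The corresponding ratio was 0.89 for the Dnmt1 window with the match and 1.05 for the Hells window. A dense CpG content was not particular to them, since the Tet2 window had a ratio of 1.19 and no E2F match.

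Of the de novo enzymes, Dnmt3a (chr12:3806007-3914443, plus strand) had normalized counts of 936, 1322 and 1730 in telogen and 2329, 2565 and 2570 in anagen. The groups did not overlap, and the log2 fold change was 0.95 ± 0.23 (adjusted p = 0.026). This call was less stable than the other 3, because leaving out anagen replicate 1, 2 or 3 gave an adjusted p of 0.083, 0.098 or 0.088. An antisense gene, Dnmt3aos, shares 0.799% of the exon bases of Dnmt3a, and the sources do not say that counting used strand. Dnmt3b (chr2:153649450-153687730, plus strand) was low and uneven, with 122, 27.9 and 57.2 normalized counts in the telogen libraries and 105, 105 and 33.2 in the anagen libraries. The groups overlapped, and the log2 fold change of 0.29 ± 0.63 had an adjusted p of 0.801.

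The erasers showed smaller differences in the hair cycle. Tet1 (chr10:62804570-62908996, minus strand) had 388, 348 and 314 normalized counts in the telogen libraries and 408, 564 and 654 in the anagen libraries. The groups did not overlap, but the log2 fold change of 0.61 ± 0.26 missed the threshold (adjusted p = 0.163). Tet3 (chr6:83362373-83459084, minus strand) likewise did not overlap between groups, with 1898, 1577 and 2127 normalized counts in the telogen libraries and 2233, 2148 and 2441 in the anagen libraries, and had a log2 fold change of 0.29 ± 0.19 (adjusted p = 0.347). Tet2 (chr3:133463679-133545139, minus strand) had 1606, 1529 and 2568 normalized counts in the telogen libraries and 1932, 2229 and 1372 in the anagen libraries. Its groups overlapped, and the log2 fold change was -0.03 ± 0.26. The reader Mbd1 had 353, 557 and 535 normalized counts in the telogen libraries and 546, 528 and 677 in the anagen libraries, with overlapping groups and a log2 fold change of 0.30 ± 0.26 (adjusted p = 0.497). In all, 6 of the 9 genes did not overlap between the groups, each higher in anagen, where 18.1% of all genes tested did so in that direction. By the thresholds of the methods, a log2 fold change above 2 with an unadjusted p under 0.05, 2 of the 9 were higher in anagen, Uhrf1 and Hells, and 3.33% of all genes tested.

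Genes of the cell cycle moved in the same comparison. Of 15 S-phase genes, 13 were called higher in anagen with a median log2 fold change of 1.97, and of 15 genes of mitosis all 15 were called higher with a median of 4.62. Mki67, a marker of cycling cells, rose from a mean of 376 ± 86.4 to 12777 ± 2280 normalized counts (SD, n = 3 each, adjusted p = 1.9e-06). The replicative helicase gene Mcm2 and the sliding clamp gene Pcna had log2 fold changes of 3.37 ± 0.33 and 1.34 ± 0.24 (adjusted p = 0.00014 and 0.005). Set against the mean log2 level of Mcm2 to Mcm7 in the same library, the 3 maintenance genes parted. Hells kept its distance to the helicase genes, at a mean log2 difference of -0.20 in telogen and -0.18 in anagen with overlapping libraries. Uhrf1 moved up against them, from -3.64 to -0.82, and Dnmt1 moved down, from 3.12 to 1.69, without overlap in either case. These differences are not corrected for length, are read only between groups, and have no test.

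**Figure D2:**
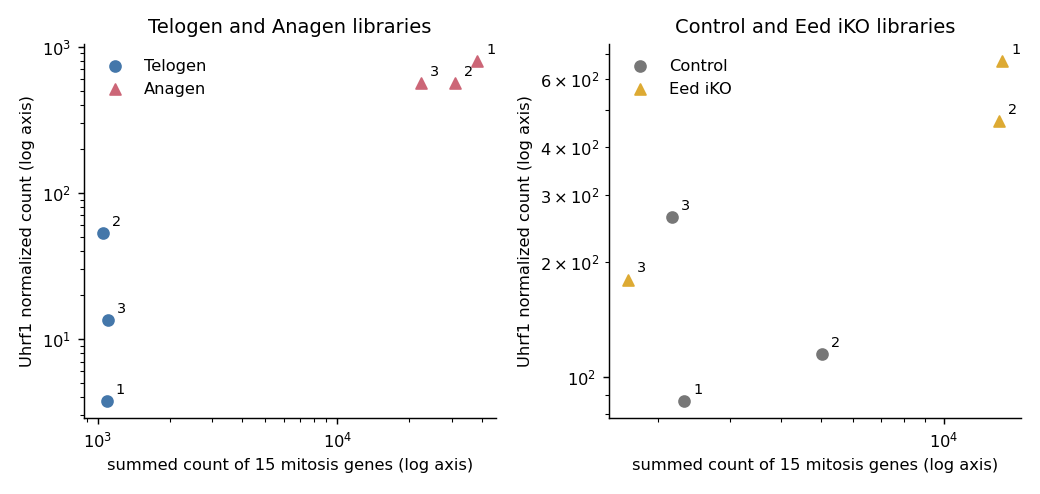
Normalized count of Uhrf1 against the summed normalized count of 15 mitosis genes, 1 point for each library and both axes logarithmic, with replicate numbers beside the points. Anagen libraries lay high on both axes, and among the P70 libraries Eed iKO replicates 1 and 2 lay above all others on both axes while Eed iKO replicate 3 lay between the controls in Uhrf1, at 180, and below them in the mitosis sum.

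Markers of other cell types were followed in the same libraries. The sum over 7 detected markers of transit amplifying cells was 892 to 992 normalized counts in telogen and 602 to 774 in anagen. Among them Msx2 fell in anagen (log2 fold change -1.60, adjusted p = 0.0081). Msx1 lay the other way without overlap, at 24.2, 3.33 and 10.1 in telogen and 33.1, 40.4 and 54.3 in anagen. It was not called. Krt35, which was not tested, was at 2.64, 1.01 and 5.76 in telogen and 98.1, 52.9 and 4.74 in anagen. The median log2 fold change of the 6 markers tested was -0.21. The sum over 8 melanocyte markers was 2909 to 3285 in telogen and 1411 to 1495 in anagen, and most of it was Mitf, which fell (-1.85, adjusted p = 0.00025). The pigment enzyme gene Dct of the same list rose, from 61.2, 134 and 94.0 in telogen libraries to 709, 531 and 387 in anagen libraries (2.51, adjusted p = 0.0019), and Sox10 was listed at 0 in all 6 libraries. The melanocyte list thus held a called gene in each direction, and its sum follows Mitf. Of the fibroblast markers, 4 of 7 were tested and 2 rose in anagen. Col1a1, a collagen gene, was at 65.5, 45.5 and 89.9 in the telogen libraries and at 214, 227 and 419 in the anagen libraries (2.06, adjusted p = 0.0093), and Dcn, the decorin gene, had 0, 0.644 and 1.47 in telogen and 38.5, 27.2 and 15.7 in anagen (adjusted p = 0.011). Col1a2, another collagen gene, lay the other way without overlap, at 233, 600 and 346 in telogen and 154, 229 and 172 in anagen. Pdgfra also had a lower mean in anagen, at 5.74 against 13.7 in telogen, with overlapping groups. Neither Col1a2 nor Pdgfra was called (adjusted p = 0.108 and 0.586 by limma). The fibroblast sums overlapped, at 316 to 652 in telogen and 480 to 630 in anagen. Of the genes of epidermal differentiation, Flg rose, from 84.2, 67.5 and 47.1 to 597, 464 and 357 (2.82, adjusted p = 0.00068), and their sums overlapped at 12341 to 20342 in telogen and 10209 to 18367 in anagen. The median log2 fold change of the 8 genes was -0.21. Krt1 (-0.46), Krt10 (-0.40), Krtdap (-0.66), Ly6a (-0.68) and Sbsn (-0.03) lay below 0, and Ivl (0.40) and Lor (1.15) above it. The endothelial sums, 92.6 to 168 in telogen and 91.6 to 129 in anagen, and those of 9 immune markers, 137 to 433 over both groups, overlapped with 0 genes called. The part of other cell types in the values of the 4 called genes was not tested. Without telogen replicate 1, the library with low Krt15 and Krt5, the same number of the 9 genes, 4, was called.

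The other genes of the pathway, 43 listed with 39 tested in the hair cycle table, gave 4 calls, 3 higher and 1 lower in anagen, a share not above the 11.6% of all genes tested. Cdca7l, a relative of the HELLS partner gene Cdca7, had 171, 186 and 121 normalized counts in the telogen libraries and 1282, 1005 and 1018 in the anagen libraries (log2 fold change 2.80 ± 0.27, adjusted p = 0.00011). Cdca7 itself did not rise, at 516, 762 and 631 in telogen and 550, 369 and 338 in anagen. Its groups overlapped (-0.62 ± 0.27, adjusted p = 0.169). Idh1, which makes the 2-oxoglutarate that TET enzymes use, had 563, 626 and 951 in telogen and 2434, 2179 and 2786 in anagen (1.82 ± 0.24, adjusted p = 0.00081). Gadd45g, a stress response gene linked to active demethylation, had 117, 136 and 69.4 in telogen and 377, 274 and 350 in anagen (1.67 ± 0.35, adjusted p = 0.012), a call lost without anagen replicate 1 or 3 (adjusted p = 0.075 and 0.055). Zbtb38, a zinc finger reader of methylated DNA, went the other way, with 1361, 1980 and 1790 in telogen and 749, 557 and 749 in anagen (-1.31 ± 0.23, adjusted p = 0.0045). None of the 10 genes of S-adenosylmethionine metabolism, which supplies the methyl group, passed the test by limma, although 3 were higher at an unadjusted p under 0.05, and Mbd2 and Mbd3 did not pass it either. The median over the 39 genes was 0.23, and without telogen replicate 1 the number called was 8.

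In the Eed iKO table, none of the 9 genes passed the threshold by limma, where 0.0267% of all genes tested did. At an unadjusted p under 0.05, 1 gene was higher in Eed iKO HFSCs, Uhrf1, and 2 were lower, Tet3 and Mbd1. That is 3 of 9, where 14.7% of all genes tested had such a p, 8.38% higher and 6.33% lower. The edgeR and DESeq2 tests on whole reads recovered from the table also called 0 of the 9. Over all 15008 genes tested, edgeR called 5 and DESeq2 673. The median log2 fold change was 0.01 for the 9 genes, ranging from -0.59 to 1.47. The medians by role were 0.53 for the 3 maintenance genes, 0.12 for the 2 de novo enzymes and -0.35 for the 3 Tet genes, and all genes tested had a median of -0.00.

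**Figure D3:**
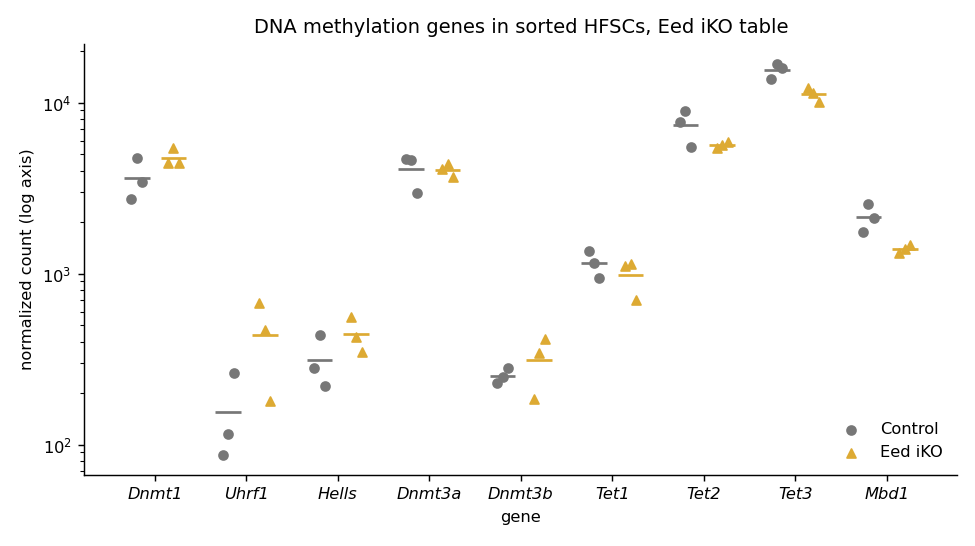
Normalized counts of the 9 genes (log axis) in each of the 3 control (circles) and 3 Eed iKO (triangles) libraries, with a line at each group mean. Tet3 and Mbd1 are the genes whose groups do not overlap, both lower in Eed iKO, and Uhrf1 spreads from 180 to 670 within Eed iKO.

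Uhrf1 had the log2 fold change farthest from 0 among the 9 genes in this comparison as well. Its normalized counts were 86.7, 115 and 262 in control and 670, 466 and 180 in Eed iKO HFSCs. Eed iKO replicates 1 and 2 exceeded every control, while replicate 3 was below the highest control. The log2 fold change was 1.47 ± 0.56 (adjusted p = 0.256), between 1.07 without Eed iKO replicate 1 and 2.01 without Eed iKO replicate 3. The summed count of the 15 mitosis genes was likewise above every control in Eed iKO replicates 1 and 2 and low in replicate 3, at 2313, 5027 and 2160 in control and 13870, 13651 and 1684 in Eed iKO. Mki67 was at 639, 2543 and 928 in control and 6125, 6301 and 609 in Eed iKO (log2 fold change 1.32 ± 0.79, adjusted p = 0.462). The summed count of the S-phase genes had another pattern, at 14538, 15864 and 16545 in control and 19135, 22548 and 17921 in Eed iKO, so that every Eed iKO library, replicate 3 included, was above every control. The part of cycling cells in the level of Uhrf1 was not tested. The 15 S-phase genes had a median log2 fold change of 0.52 and the 15 mitosis genes 1.15, with 0 called in either list by limma and 5 and 2 at an unadjusted p under 0.05.

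Dnmt1 had 2719, 4755 and 3447 normalized counts in control and 4413, 5447 and 4407 in Eed iKO HFSCs, a log2 fold change of 0.42 ± 0.20 (adjusted p = 0.368). Hells had 280, 437 and 221 in control and 555, 424 and 346 in Eed iKO (0.53 ± 0.34, adjusted p = 0.502). Both overlapped between the groups. Dnmt3a had 4704, 4631 and 2951 normalized counts in control and 4110, 4360 and 3660 in Eed iKO, with group means that lay within 1 SD of each other and a log2 fold change of 0.01 ± 0.19 (adjusted p = 0.988). Dnmt3b had 229, 247 and 281 in control and 184, 344 and 413 in Eed iKO (0.24 ± 0.37, adjusted p = 0.812).

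The Tet genes and Mbd1 had values below 0 in this comparison. Tet3 had 13736, 16926 and 15870 normalized counts in control and 12240, 11461 and 10065 in Eed iKO HFSCs. Every Eed iKO library was below every control, and the log2 fold change was -0.46 ± 0.14 (adjusted p = 0.170). Mbd1 likewise did not overlap, with 1748, 2539 and 2112 in control and 1326, 1393 and 1476 in Eed iKO, and had a log2 fold change of -0.59 ± 0.18 (adjusted p = 0.174). Among all genes tested, 10% had Eed iKO libraries all below the controls. Tet2 had 7675, 8990 and 5477 in control and 5455, 5660 and 5854 in Eed iKO (-0.35 ± 0.18, adjusted p = 0.385), and Tet1 had 1354, 1151 and 942 in control and 1114, 1145 and 697 in Eed iKO (-0.24 ± 0.25, adjusted p = 0.698).

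Transcript length moved with the fold changes of this table. The median log2 fold change of Eed iKO over control was 0.23 for genes whose longest coding transcript is under 2000 bases and -0.14 for those of 8000 bases or more. The longest coding transcript has 10904 bases for Tet3, 9179 for Tet2 and 3920 for Mbd1, and genes within 1.2-fold of these lengths had medians of -0.13, -0.13 and -0.04. With the length trend removed, the log2 fold changes were -0.32 for Tet3, -0.23 for Tet2 and -0.55 for Mbd1. The 8 markers of transit amplifying cells, 7 of them in this table, also summed lower in Eed iKO, at 5404 to 6401 against 7187 to 9679 normalized counts. Much of this was Dlx3, at 4080, 3452 and 4965 in control and 2145, 1586 and 2356 in Eed iKO. Its log2 fold change was -1.04 (adjusted p = 0.09 by limma). The median of the 7 was -0.16, and Msx1 (0.70) and Shh (0.93) lay above 0. The melanocyte sums, nearly all Mitf, overlapped at 7839 to 9131 in control and 7940 to 8842 in Eed iKO. In the lists of other cell types 0 genes passed by limma. At an unadjusted p under 0.05, 1 melanocyte and 2 immune markers were higher, and 1 marker each of transit amplifying cells, epidermal differentiation and fibroblasts was lower. Tyrp1 of the melanocyte list was at 0, 6.50 and 0 in control and 17.2, 25.2 and 16.8 in Eed iKO (adjusted p = 0.208). Of the immune markers, Cd207 was at 0 in every control library and at 18.3, 13.3 and 23.7 in Eed iKO (adjusted p = 0.13), and H2-Ab1 was at 8.33, 48.7 and 54.4 in control and 140, 83.7 and 156 in Eed iKO (adjusted p = 0.232), with immune sums of 250 to 473 and 396 to 773. The other immune markers tested lay on both sides, with log2 fold changes of 0.33 for Ptprc, 0.36 for Cd74, -0.25 for H2-Aa and -0.48 for Cd3e. H2-Aa was at 67.3, 52.0 and 64.4 in control and 111, 34.5 and 34.6 in Eed iKO. Col1a1 of the fibroblast list lay lower, at 248, 274 and 782 in control and 92.5, 110 and 238 in Eed iKO (adjusted p = 0.228). Col1a2 (-0.49) also lay below 0, and Dcn (0.34) and Pdgfra (0.04) lay above it. The part of other cell types in the values of Uhrf1, Tet3 and Mbd1 was not tested.

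**Figure D4:**
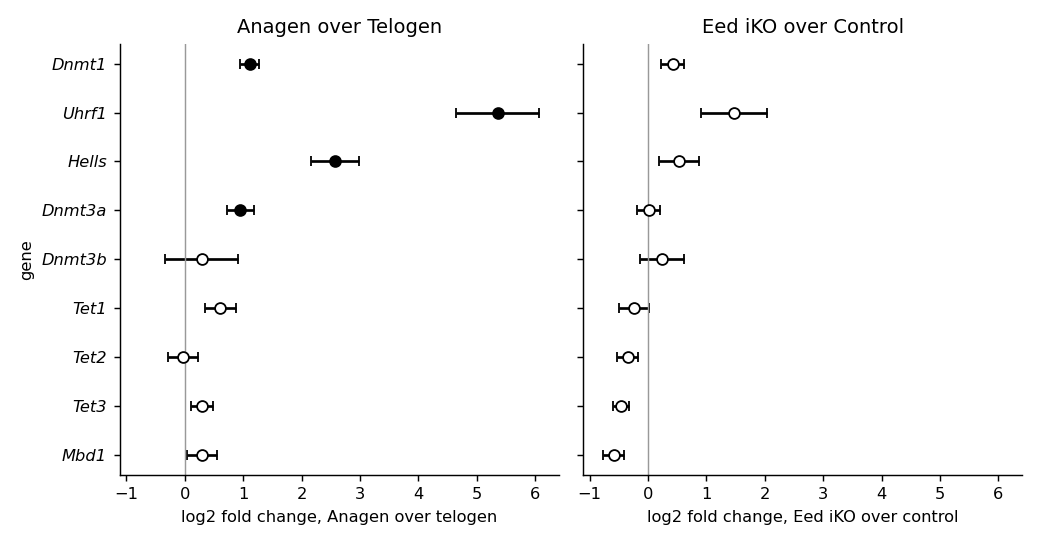
Log2 fold changes of the 9 genes with their standard errors, anagen over telogen on the left and Eed iKO over control on the right, on the same scale. Filled points passed an adjusted p of 0.05, which 4 genes did in the hair cycle and 0 in the Eed iKO comparison.

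Of the other pathway genes, 40 of 43 were tested in the Eed iKO table and 0 passed by limma, with a median log2 fold change of 0.03. At an unadjusted p under 0.05, 7 were higher and 2 lower. Mbd2, a reader of methylated DNA, and its relative Mbd3 were near the threshold of the adjusted p. Mbd2 had 3532, 3967 and 4080 normalized counts in control and 6751, 7442 and 5776 in Eed iKO (log2 fold change 0.78 ± 0.15, adjusted p = 0.09). Mbd3, a NuRD complex subunit that in mammals does not bind methylated CpG selectively, had 1170, 1390 and 1222 in control and 2509, 2293 and 2059 in Eed iKO (0.86 ± 0.17, adjusted p = 0.092). Neither overlapped between groups. With DESeq2 on recovered reads both and Mthfd1, a gene of the folate cycle with a log2 fold change of 0.50 by limma, passed (adjusted p = 0.00059, 0.00073 and 0.039), while edgeR on the same reads called 0. Other genes with an unadjusted p under 0.05 were Idh1 (0.67), Gadd45b (0.65), Idh2 (0.55), Daxx (0.50) and Shmt2 (-0.43), with the log2 fold change of Eed iKO over control in brackets.

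Within libraries, the levels of the genes were set side by side as normalized counts per kilobase of the longest coding transcript, a choice that moves the order, as the median transcript length changed 26 of 36 levels by more than the replicate SD. Tet3 was the highest of the 9 in both P70 groups, at 1422 ± 149 for control and 1032 ± 101 for Eed iKO (SD, n = 3 each). In control HFSCs it was followed by Tet2 at 804 ± 193, Dnmt1 at 620 ± 176, Mbd1 at 544 ± 101 and Dnmt3a at 423 ± 102, of which neighbours lay within 1 SD of each other except Mbd1 and Dnmt3a. Tet1 (80.0 ± 14.3), Dnmt3b (58.4 ± 6.13), Hells (53.2 ± 19.0) and Uhrf1 (43.1 ± 26.3) formed a lower tier. In Eed iKO HFSCs Dnmt1 at 810 ± 102, Tet2 at 616 ± 21.7, Dnmt3a at 417 ± 36.6 and Mbd1 at 357 ± 19.2 came next, each apart from its neighbour by more than 1 SD, and Uhrf1, Hells, Dnmt3b and Tet1 lay between 122 and 68.6. In telogen, Dnmt1 was the highest at 285 ± 17.9, Tet2, Tet3, Dnmt3a and Mbd1 followed between 207 and 123, and Uhrf1 was the lowest at 6.50 ± 7.24. In anagen, Dnmt1 was at 615 ± 17.8, ahead of Dnmt3a at 257 ± 14.2. Uhrf1 at 179 ± 37.7 and Hells at 180 ± 78.1 then lay among Tet3 (209 ± 13.8), Tet2 (201 ± 47.4) and Mbd1 (149 ± 20.8), none of them apart from its neighbours by more than the spread, and Tet1 and Dnmt3b were the lowest.

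The balance of methyltransferase to Tet transcripts, as the summed per-kilobase level of Dnmt1, Dnmt3a and Dnmt3b over that of Tet1, Tet2 and Tet3, was 1.04, 1.29 and 0.99 in telogen and 1.98, 1.93 and 2.08 in anagen. It was 0.457, 0.515 and 0.452 in control and 0.679, 0.834 and 0.761 in Eed iKO HFSCs. The groups did not overlap in either table, and the ratio was put together after its genes had been seen, so that it has no test. Its value depends on the length used. With the median transcript length, which is 814 bases for Dnmt3a and 567 for Tet1 against 9685 and 14369 for the longest, it was 1.00, 0.978 and 0.789 in control and 1.14, 1.25 and 1.30 in Eed iKO, and 1.09, 1.62 and 1.69 in telogen and 2.36, 2.11 and 2.06 in anagen. The groups did not overlap by that length either, but whether methyltransferases or Tet genes were ahead in Eed iKO HFSCs differed between the lengths. Uhrf1 per Dnmt1 on the same scale was 0.00395, 0.0506 and 0.0125 in telogen and 0.363, 0.247 and 0.264 in anagen. Within the Tet family, Tet3 took 57.4% to 68.7% of the per-kilobase sum in the P70 libraries and Tet1 3.01% to 4.56%. With the median length, Tet3 took 36.6% to 48.7% and Tet1 29.6% to 39.3%, so the share of Tet1 rests on the length chosen.

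**Figure D5:**
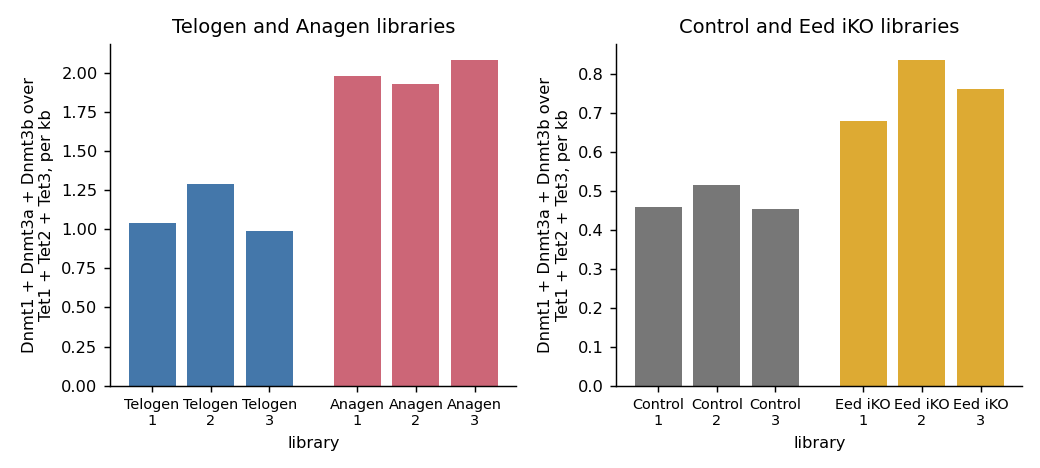
Ratio of the summed per-kilobase levels of the 3 methyltransferase genes to those of the 3 Tet genes, 1 bar for each library. The 3 anagen bars, 1.93 to 2.08, stand above the telogen bars, 0.99 to 1.29, and the 3 Eed iKO bars, 0.679 to 0.834, above the control bars, 0.452 to 0.515, with a separate axis for each table.

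The genes whose log2 profile over all 12 libraries, centred within each table, lay closest to each called gene were found among 13362 genes by the root mean square difference. For Uhrf1 these were Fndc1 (0.40) and Ung (0.60), the latter the uracil glycosylase of base excision repair, where the median gene was at 2.19. For Hells they were Kpna2 (0.32), an importin, and Timp3 (0.33), a metalloproteinase inhibitor, against a median of 1.12. For Dnmt1 they were Epb41l4a and Knop1 (0.17 each, median 0.63), and for Dnmt3a Tbl1xr1 (0.11) and Fam3c (0.15, median 0.60).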

How the data were processed

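HFSC RNA was amplified with the Ovation RNA-seq System V2 and sequenced as paired-end reads. Per the methods and the submitters' processing notes, the authors aligned reads to Gencode vM20 transcripts with Kallisto (0.42.5; build mm10) and compared protein-coding genes with DESeq2, whose version those notes give as 3.11. The deposited values are signal, made by dividing each gene's count by the size factor DESeq2 gave the library. The tables also hold the authors' fold changes and p-values, which were not used.

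The members and lists were chosen with earlier results of these data known. Values were tested as log2(value + 1) with limma (3.58.1, intensity trend) after filterByExpr (edgeR 4.0.16, count minimum 10), without a replicate block, each table on its own, with Benjamini-Hochberg adjustment over all genes tested. The added 1 pulls the fold changes of low genes toward 0. As differences of mean logs, they can also lie above the log2 of the fold of means, as for Uhrf1 in the hair cycle table. Both tables hold normalized values, so edgeR on counts was not the main test. In the Eed iKO comparison, 100% of the values were whole multiples of 1 read (tolerance 0.1), and edgeR and DESeq2 (1.42.0) were run on those reads. In the hair cycle libraries, 19.0% to 25.4% were, so no reads were recovered. Libraries of a group are called biological replicates in the methods, with at least 2 litters behind the P70 groups and 6 animals named for the hair cycle ages, but the animal or litter of each library is not given, so p-values measure the spread between these libraries. The named genes were the 9 members, Eed, pathway genes with an adjusted p under 0.05 (if none, an unadjusted p under 0.05), Mcm2, Pcna and Mki67, and the 2 nearest profiles of each called member. Not every pathway gene that met this rule is reported here. Marker genes named in the text were chosen after their values were seen. Coordinates, lengths and exons are from GENCODE vM21 (GRCm38), promoters from RefSeq. Mbd1 had no promoter entry. Code was tested on simulated data. Alternatives were the pseudocount (0.1), no filter, TMM scaling, no intensity trend, a replicate block, leaving out each library, the thresholds of the methods (absolute log2 fold change over 1.5 in the Eed iKO table or 2 in the hair cycle table with an unadjusted p under 0.05), the median transcript length and, added after seeing the data, removal of the length trend.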

Additional observations from a re-analysis of the deposited data

How the results depend on the processing

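Of 18 results for the 9 genes, 15 kept their direction in every refit (12 in the hair cycle table, 14 in the Eed iKO table) and 14 also their side of the adjusted threshold. The thresholds of the methods are not among these refits, and Dnmt1 and Dnmt3a did not meet them. No alternative called a member in the Eed iKO table. The lowest adjusted p over its 14 refits (limma, edgeR or DESeq2) came near the threshold for Mbd1 (0.051), Tet3 (0.06) and Uhrf1 (0.068). In the hair cycle comparison 4 members were called, 3 to 4 with a library left out, 3 without the intensity trend (Dnmt3a lost, adjusted p = 0.109) and 2, Uhrf1 and Hells, with the thresholds of the methods, which 3.33% of all genes tested met in that direction. Other pathway genes called in the Eed iKO table numbered 0, but 3 with the replicate block, 4 with DESeq2, and 0 to 2 with a library left out (2 without Eed iKO replicate 3). In the hair cycle table they numbered 4, with 3 to 8 when a library was left out (8 without telogen replicate 1) and 1 with the thresholds of the methods. The causes were not tested.

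Values near 0 changed sign. Dnmt3a in Eed iKO went from 0.01 to between -0.21 and 0.13 with a library left out (-0.21 without control replicate 3, -0.00 and -0.05 without Eed iKO replicates 1 and 2) and to -0.02 with edgeR and with DESeq2. Eed went from -0.01 to between -0.17 and 0.10 (0.09, 0.10 and 0.05 among them) and to 0.00 with edgeR and DESeq2. In the hair cycle, Dnmt3b ranged from -0.22 (without telogen replicate 2) to 0.84, and Tet2 from -0.18 to 0.21 (0.17 among them), and 0.02 with the length trend removed.

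Same-numbered libraries had correlated deviations of 0.039, 0.0684 and 0.193 in the Eed iKO table and -0.0348, -0.0711 and -0.0294 in the hair cycle table. For libraries of different numbers these ran from -0.145 to 0.0769 in the Eed iKO table and from -0.0167 to 0.0554 in the hair cycle table. Whether the numbers pair libraries was not tested. The replicate block raised calls over all genes in the Eed iKO table from 4 to 424, and lowered them from 1556 to 1224 in the hair cycle table. DESeq2 called 673 in the Eed iKO table, edgeR 5, limma without Eed iKO replicate 3 203, and limma without 1 other library 1. In the hair cycle table leaving out a library gave 597 to 1529, and omitting the intensity trend gave 842. Replacing the longest by the median transcript length moved 26 of 36 per-kilobase levels by more than the replicate SD, so the order of genes within a library depends on that choice.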
